A study of Mus musculus with 2 samples.

Results

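Genomic imprinting was examined at 10 mouse genes, H19, Igf2, Kcnq1ot1, Peg3, Snrpn, Meg3, Mest, Peg10, Plagl1 and Nnat, out of 55413 annotated genes. The genes were chosen by name, and their peaks were those of the deposited ATAC-seq list that covered an annotated start of the gene or lay in the gene or within 20 kb on either side of it. This gave 42 peaks out of 116777 on chromosomes 1 to 19, X and Y. ATAC-seq uses a transposase that inserts adapters where DNA is accessible, so that a peak marks a stretch of open chromatin. The samples were EHMT2-dTAG-mcherry mESCs of a BL6/129 hybrid background, in which the endogenous gene for the histone methyltransferase EHMT2 carries a degron and an mCherry reporter. Both samples received the vehicle DMSO for 24 h and no degrader, so EHMT2 was not depleted. They came from 2 independent clones, with 50000 cells per sample, in FBS/LIF medium, and the study grew its mESCs on mitomycin C-treated embryonic fibroblasts. The authors merged both clones before they called peaks, so no value below has a replicate, no spread between clones can be given and no test was made.

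Imprinted genes are transcribed mainly from the copy inherited from the mother or mainly from that inherited from the father. The choice is set by DNA methylation laid down in the egg or the sperm at an imprinting control region, which after fertilization stays methylated on the same parental copy. ZFP57, a zinc finger protein that binds the methylated sequence TGCCGC, and its partner TRIM28 help to keep this methylation. CTCF binds the unmethylated copy of the H19 control region and blocks enhancers from reaching Igf2. In the list used here, reads of both parental copies are pooled, and a peak cannot be assigned to either of them.

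Each peak has a fold enrichment, which is the number of fragments over its summit plus 1, divided by the expected local background plus 1. The fragment number, which MACS2 does not write out, was worked back from these ratios and their p-values, and is given here with an exact 95% Poisson interval, which covers counting error only. The smallest number among all peaks was 6 fragments, and the median was 9 (quartiles 7 and 17). The list was restricted to q-values below 0.05, so a stretch without a peak is a stretch where no pileup passed this threshold at the depth of the merged libraries. It is not shown to be closed.

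The sequences behind the results below are given from the RefSeq mouse assembly GRCm38.p6 (mm10), 5′ to 3′. The following 4 lines are the CTCF sites that RefSeq annotates in the H19 control region, shown because no peak covered them. They are written on the strand of H19, and capitals mark CGNGGNGGC, the letters searched for as a core of the CTCF motif. Site m2 has no exact match to these letters.
CTCF site m1, chr7:142582026-142582073, minus strand: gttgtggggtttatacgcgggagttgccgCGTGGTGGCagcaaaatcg
CTCF site m2, chr7:142581782-142581826, minus strand: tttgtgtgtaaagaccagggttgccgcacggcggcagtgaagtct
CTCF site m3, chr7:142580756-142580803, minus strand: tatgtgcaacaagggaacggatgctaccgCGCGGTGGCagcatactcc
CTCF site m4, chr7:142580301-142580347, minus strand: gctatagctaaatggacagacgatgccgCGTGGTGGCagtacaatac

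Further sequences show starts with and without a peak. The stretch at the summit of the Kcnq1ot1 start peak had the highest fold enrichment of a start among the 10 genes, and the stretch just before the H19 start had no peak within 20 kb. In both, capitals mark CG dinucleotides, the sites of DNA methylation.
Kcnq1ot1 summit, chr7:143296586-143296706, minus strand: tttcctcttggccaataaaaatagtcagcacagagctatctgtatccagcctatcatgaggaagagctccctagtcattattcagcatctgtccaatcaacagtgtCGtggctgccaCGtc
H19 before the start, chr7:142578144-142578263, minus strand: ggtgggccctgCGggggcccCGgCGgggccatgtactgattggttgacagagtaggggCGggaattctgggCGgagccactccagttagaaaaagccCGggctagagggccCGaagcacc
In the following 4 lines, capitals mark TGCCGC on either strand. The Snrpn and Plagl1 stretches are those richest in these letters within a peak over a transcript start, leaving out UTRs. The Meg3 stretch lies in a peak of the intergenic control region, and the Mest stretch precedes a CpG-rich start without a peak.
Snrpn, chr7:60004351-60004531, minus strand: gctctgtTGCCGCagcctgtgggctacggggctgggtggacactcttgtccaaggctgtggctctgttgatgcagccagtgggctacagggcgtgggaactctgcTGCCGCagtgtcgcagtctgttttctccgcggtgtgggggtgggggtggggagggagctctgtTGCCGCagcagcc
Plagl1, chr10:13091050-13091230, plus strand: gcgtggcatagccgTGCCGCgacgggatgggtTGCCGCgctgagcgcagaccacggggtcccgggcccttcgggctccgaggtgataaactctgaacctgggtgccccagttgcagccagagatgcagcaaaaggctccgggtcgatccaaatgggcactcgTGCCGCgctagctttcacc
Meg3 upstream, chr12:109527550-109527670, plus strand: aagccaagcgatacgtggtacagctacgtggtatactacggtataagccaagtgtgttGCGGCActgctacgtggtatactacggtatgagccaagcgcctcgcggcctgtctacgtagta
Mest, chr6:30737870-30738049, plus strand: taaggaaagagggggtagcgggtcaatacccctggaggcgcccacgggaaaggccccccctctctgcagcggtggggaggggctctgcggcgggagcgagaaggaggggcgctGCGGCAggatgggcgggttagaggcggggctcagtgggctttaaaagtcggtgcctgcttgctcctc
The last stretch comes from the intron peak of Peg3 with the most fragments, and capitals mark AAGATGGC, the letters searched for as the YY1 motif.
Peg3 intron, chr7:6727818-6727998, plus strand: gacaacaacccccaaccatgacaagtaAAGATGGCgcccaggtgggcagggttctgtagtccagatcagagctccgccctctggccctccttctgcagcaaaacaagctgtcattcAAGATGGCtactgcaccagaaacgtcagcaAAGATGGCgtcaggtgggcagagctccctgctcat

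A peak covered the annotated gene start of 4 of the 10 genes, Kcnq1ot1, Peg3, Peg10 and Nnat. Of all protein-coding and lincRNA gene starts, 50.4% (14001 of 27792) were covered. The gene start in the annotation is the most upstream start of any transcript, and several imprinted genes are known to be transcribed from others. When any annotated transcript start was counted, 8 of the 10 genes had a peak, beside 56.5% of all protein-coding and lincRNA genes. The added genes were Igf2, Snrpn, Meg3 and Plagl1. H19 and Mest had no peak over any transcript start. Counted by start rather than by gene, 26 of the 67 distinct transcript starts of the 10 genes were covered (38.8%). This was below the 47.4% of those of all protein-coding and lincRNA genes. Kcnq1ot1 is annotated as antisense and Meg3 and H19 as lincRNA, and among all lincRNA and all antisense genes 17.3% and 29.3% of gene starts were covered, beside 59.2% for protein-coding genes. A peak lay within 20 kb of 9 of the 10 genes, all but H19, beside 90.1% of all protein-coding and lincRNA genes. With peaks of −log10 q of at least 10 alone, 2 of the 10 genes, Kcnq1ot1 and Peg10, had a peak over the gene start and the same number over any transcript start, beside 37.3% and 41.7% of all protein-coding and lincRNA genes. The count of genes with a peak over any transcript start was thus above the background share in the whole list and below it with the stricter q. None of these counts was tested.

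**Figure D1:**
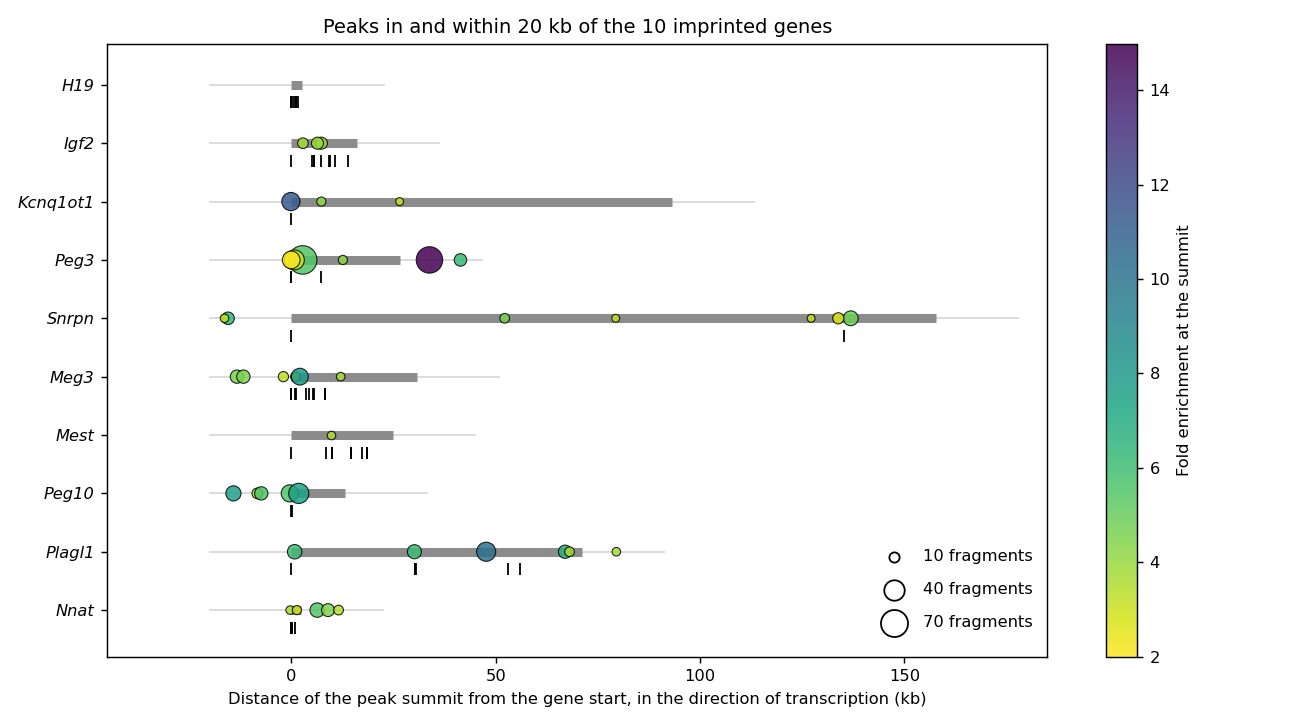
Peaks of each of the 10 genes by the distance of the summit from the gene start in kb, in the direction of transcription. Grey bars are the genes, thin lines the 20 kb on either side, black ticks the annotated transcript starts, circle areas the fragments over the summit and colours the fold enrichment. H19 has no peak and Mest has 1, while the highest fold enrichment, 15.0 near Peg3, lies 33803 bp from the Peg3 start.

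The 42 peaks were near all peaks in median fold enrichment and above them in median fragment number. Their median fold enrichment was 4.16 (quartiles 3.51 and 5.94), beside 3.98 over all peaks and 8.33 over the 12569 peaks that covered the start of a protein-coding or lincRNA gene. Their median fragment number was 14.5, beside 9 over all peaks and 31 over gene start peaks. A −log10 q of at least 10 was reached by 8 of the 42 peaks, beside 22.2% of all peaks. The summit rested on 6 to 9 fragments in 15 of the 42, whereas 53.7% of all peaks had fewer than 10. Of the 42 peaks, 8 covered a transcript start of the gene, 5 covered a start of another gene only, and 29 covered no transcript start. The share of all peaks that cover any transcript start is not given here, so this split cannot be called high or low. The gene start itself was covered by 4 of the 42, while 12569 of all 116777 peaks covered a protein-coding or lincRNA gene start. The peak farthest from its gene lay 16160 bp from Snrpn (7 fragments), and the nearest peak beyond the 20 kb lay 22227 bp from Snrpn (49 fragments). The sequence reaching 250 bp to either side of the summit had no other place in the genome with 90% identity or more along 50% or more of its length for 40 of the 42 peaks. The exceptions were a peak in the body of Kcnq1ot1 with 1096 other matches, which was 69.6% repeat-masked and had 6 fragments, and a peak upstream of Snrpn with 2 other matches. Reads from such copies are written at 1 location, with ties placed at random.

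**Figure D2:**
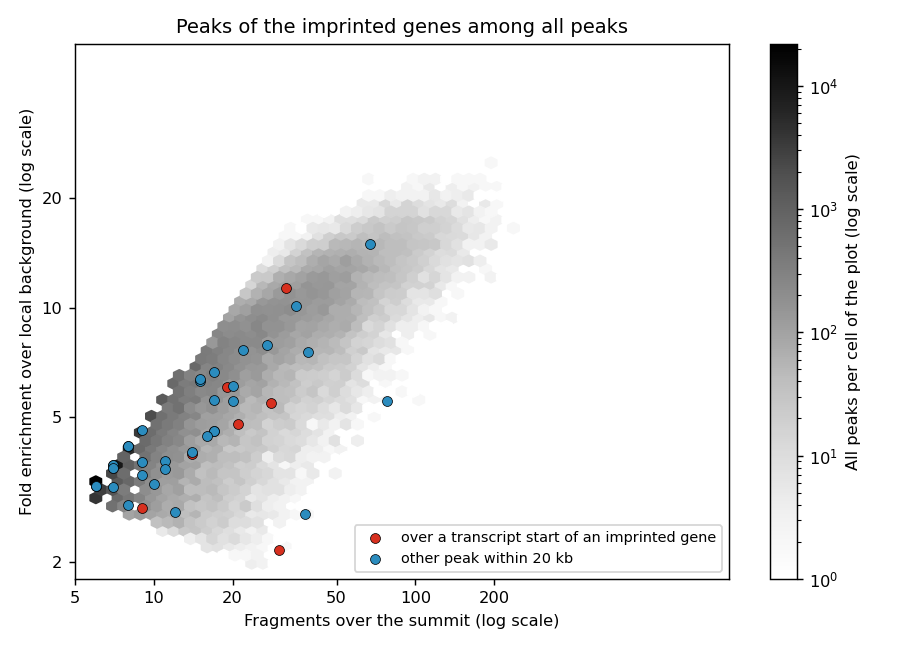
Fold enrichment against fragments over the summit, both on log scales, for all 116777 peaks (grey, darker where more peaks fall) and for the 42 peaks of the imprinted genes. Red points are the 8 peaks over a transcript start of the gene and blue points the other 34. The red point with the lowest fold enrichment, 2.16 at 30 fragments, is the Peg3 start.

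H19 and Igf2 share an imprinting control region and a set of enhancers. H19, a non-coding RNA transcribed from the maternal copy, lies at chr7:142575529-142578143 on the minus strand and had no peak in the gene or within 20 kb. The stretch without a peak around it was 72.2 kb long, and 95.1% of the 116756 gaps between neighbouring peaks were shorter (median 11.6 kb). The nearest peaks lay 37161 bp beyond its end, in an intron of Mrpl23 (chr7:142537655-142538368, 11 fragments), and 32381 bp before its start (chr7:142610524-142611829, fold enrichment 9.62, 34 fragments). RefSeq annotates 31 elements in and around H19, several of which overlap or contain others, and none was covered by a peak. All of them lie inside the same 72.2 kb stretch, so they repeat the same absence and are not separate observations. The share of RefSeq elements with a peak elsewhere in the genome is not given here. The 31 include the control region itself (chr7:142580248-142582833), 2 DNase I hypersensitive sites within it, 9 enhancers and 9 protein binding sites. The control region begins 2105 bp before the H19 start, is 3.3% repeat-masked, and held 3 matches of CGNGGNGGC, all on the strand of H19 and all within annotated CTCF sites (the sequences of m1, m3 and m4 above). The window from 2 to 4 kb before the start held the same number, which 0.13% of the windows at the same distance from 27792 protein-coding and lincRNA genes matched or exceeded. This window was chosen because it holds the known control region, and the letters as a core of the CTCF motif. The small share thus follows in part from that choice and is no evidence of its own. Without the first 2 letters of the motif the window held 7 matches, a number reached by 14.99% of like windows. Windows reaching 250 bp to either side of m1, of m4 and of the H19 start had no other match in the genome by the rule above. Reads in ENCODE High Signal Regions were removed by the authors, and whether any such region lies here was not tested.

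Igf2, which encodes a growth factor expressed from the paternal copy, lies at chr7:142650766-142666816 on the minus strand. It had 3 peaks, all within the gene and all of similar height. The peak over the transcript start at 142659489 (chr7:142658891-142659756) had a fold enrichment of 3.97 and 14 fragments (95% interval 7.65 to 23.5), and it also covered a start of the antisense transcript Igf2os. The peak with the highest fold enrichment, 4.01 with 14 fragments, lay at chr7:142660223-142660955, and that of the third was 3.80 with 11 fragments. The start at 142659489 is the most CpG-rich of the gene, with 78.2% GC and an observed over expected CpG ratio of 0.88. The CpG-rich starts at 142661205 and 142661305 lay 250 and 350 bp outside a peak, and the most upstream start, at 142666816, lay 2366 bp from one and had a CpG ratio of 0.06.

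Kcnq1ot1, a long non-coding RNA, is transcribed from the unmethylated paternal copy of a control region inside an intron of Kcnq1, antisense to that potassium channel gene. Its promoter is thus itself the control region. The peak over its start (chr7:143295768-143297144) had a fold enrichment of 11.3 with 32 fragments (95% interval 21.9 to 45.2), and 94.8% of all peaks had a lower fold enrichment. The summit, whose sequence is given above, lay 97 bp before the start. The 250 bp on either side of the start had 54.1% GC and a CpG ratio of 0.60, and the stretch printed for the summit held 2 CG dinucleotides. In the rest of the 133.1 kb that the gene and its flanks span there were 2 weak peaks, with 8 and 6 fragments. Neither TGCCGC, CGNGGNGGC nor AAGATGGC occurred in the start peak.

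Peg3, which encodes a zinc finger protein expressed from the paternal copy, has its start at chr7:6730431 on the minus strand, next to the start of Usp29 on the other strand, and its control region spans the promoter and the beginning of the intron. Here 3 peaks followed each other within a few kb. The start peak (chr7:6730311-6730623), which also covered starts of Usp29 and Gm27675, had 30 fragments (95% interval 20.2 to 42.8), more than 87.6% of all peaks, but a fold enrichment of 2.16, and 0.023% of all peaks had a lower one. The intron peak at chr7:6729387-6729788 had 38 fragments and a fold enrichment of 2.72. The intron peak at chr7:6727062-6729063 was 2002 bp long and had 78 fragments (95% interval 61.7 to 97.3), the most of any of the 42 peaks, with a fold enrichment of 5.54. The local background at these 3 peaks was 13.3 fragments, beside a median of 1.32 over all peaks, and it exceeded 10 in 0.248% of all peaks (290). MACS2 takes this background from the surrounding reads themselves, and why it was high here was not tested. The longer intron peak held 9 matches of AAGATGGC and the shorter held 2, all 11 on the strand opposite to Peg3 and 3 of them in the sequence given above. Of all peaks, 7.9% held at least 1 such match. The highest fold enrichment within 20 kb of Peg3 was not its own but that of the start peak of the neighbouring imprinted gene Zim1 (chr7:6696116-6696850), with 15.0 and 67 fragments.

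Snrpn, which encodes a small nuclear ribonucleoprotein and is expressed from the paternal copy, has its annotated gene start at chr7:60140219 on the minus strand, and 15143 bp separated this start from the nearest peak. The start shared with Snurf, at 60005111, is known as the site of the control region for the Prader-Willi domain. It was covered by a peak of 2454 bp (chr7:60002831-60005284) with a fold enrichment of 4.80 and 21 fragments (95% interval 13 to 32.1), whose summit lay 1779 bp downstream of that start. This peak held 10 matches of TGCCGC, the most of the 42 peaks, of which 3 fall in the stretch given above, but none within 250 bp of the summit. The other 6 peaks had 6 to 15 fragments. The one of highest fold enrichment, 6.35 with 15 fragments, lay 15470 bp before the gene start over the start of Gm7367.

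Meg3, a long non-coding RNA of the maternal copy, starts at chr12:109541001 on the plus strand, and its most upstream start lay 682 bp from a peak. A weak peak (chr12:109541683-109542124, fold enrichment 2.81, 9 fragments, 95% interval 4.12 to 17.1) covered the start at 109542023. The highest peak of the gene lay further inside (chr12:109542809-109543220), with a fold enrichment of 7.91 and 27 fragments (95% interval 17.8 to 39.3). In the window from 10 to 16 kb before the start, which holds the intergenic control region of the Dlk1-Meg3 domain, there were 2 peaks. That at chr12:109527374-109527852 had a fold enrichment of 4.59, that at chr12:109528874-109529840 had 4.57, and both had 17 fragments (95% interval 9.90 to 27.2). This window held 10 matches of TGCCGC, for which no count in like windows is given here. It held none of CGNGGNGGC, and like windows before other genes held 0.323 matches of CGNGGNGGC on average. Of the 10 matches of TGCCGC, 1 fell in a peak, and it is in the sequence given above. The control windows of H19 and Meg3, which both carry methylation of paternal origin, thus held 0 and 2 peaks.

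Mest, which encodes a hydrolase-like protein expressed from the paternal copy, lies at chr6:30723547-30748465 on the plus strand and had 1 peak in the 64.9 kb of the gene and its flanks. It lay at chr6:30732663-30733447, with a fold enrichment of 3.70 and 7 fragments (95% interval 2.81 to 14.4). It ended 7 bp before the transcript start at 30733454. The CpG-rich promoter of Mest, with starts at 30738050, 30738053 and 30738055, had no peak, and the nearest lay 4603 bp away. As at H19, whether a High Signal Region with removed reads lies here was not tested. The 250 bp on either side of the start at 30738050 had 66.3% GC, a CpG ratio of 0.80 and 6 matches of TGCCGC, and no other match in the genome. The number of TGCCGC matches around the starts of other genes is not given beside it. Peaks took up 1.21% of the gene and its flanks, beside a median of 4.25% over all protein-coding and lincRNA genes, and 16% of these genes had a lower share.

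Peg10, a paternally expressed gene derived from a retrotransposon, starts at chr6:4747306 on the plus strand, back to back with Sgce, a sarcoglycan gene of the same imprinted domain. The peak over its start (chr6:4746733-4747555) also covered a start of Sgce, and had a fold enrichment of 5.47 with 28 fragments (95% interval 18.6 to 40.5). A broader peak of 1637 bp in the intron of Peg10 (chr6:4747948-4749584) had more fragments, 39 (95% interval 27.7 to 53.3), and a fold enrichment of 7.58. The highest fold enrichment, 7.67 with 22 fragments, lay 14154 bp before the start in an intron of Sgce. Peg10 had the largest share of bases in peaks among the 10 genes, 8.55%, and 86.1% of all protein-coding and lincRNA genes had a lower one.

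Plagl1, a zinc finger transcription factor expressed from the paternal copy, has its most upstream start at chr10:13060504 on the plus strand, 37 bp outside a peak of fold enrichment 6.10 with 20 fragments. The CpG-rich starts between 13090691 and 13091013, at which its control region lies, were covered by a peak (chr10:13090337-13091630) with a fold enrichment of 6.06 and 19 fragments (95% interval 11.4 to 29.7). This peak held 6 matches of TGCCGC, of which 3 are in the sequence above. The highest peak of the gene covered no start. It lay in an intron at chr10:13107750-13108447, with a fold enrichment of 10.1 and 35 fragments (95% interval 24.4 to 48.7), and 92.3% of all peaks had a lower fold enrichment.

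Nnat, which encodes a small membrane protein and is expressed from the paternal copy, lies in an intron of Blcap and starts at chr2:157560078 on the plus strand. The peak over its start (chr2:157559611-157560545), which also covered a start of Blcap, was among the weakest, with a fold enrichment of 3.64 and 7 fragments (95% interval 2.81 to 14.4). It held 6 matches of TGCCGC. The highest peak near Nnat covered another start of Blcap (chr2:157565769-157566765) and had a fold enrichment of 5.53 with 20 fragments. The 4 gene start peaks of the 10 genes thus ranged from 2.16 to 11.3 in fold enrichment and from 7 to 32 in fragments, and the order by fold enrichment differed from the order by fragments for Peg3 alone, which was lowest by the former and close to Peg10 and Kcnq1ot1, within counting error, by the latter.

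The annotation gives the 10 genes 67 distinct transcript starts, of which 26 (38.8%) were covered by a peak. Of those of all protein-coding and lincRNA genes, 47.4% (48211 of 101611) were covered. A start was called CpG-rich when the 250 bp on either side of it had at least 50% GC and an observed over expected CpG ratio of at least 0.6. Of the 26 covered starts, 21 were CpG-rich, and their median CpG ratio was 0.78. Of the 41 starts without a peak, 7 were CpG-rich, and the median was 0.295. Over all protein-coding and lincRNA genes, the medians were 0.779 for covered and 0.231 for other starts. Of the CpG-rich starts, 21 of 28 were covered, beside 93.8% (36306 of 38714) of those of all protein-coding and lincRNA genes. The 7 without a peak belonged to Mest (3), Igf2 (2), H19 (1) and Meg3 (1), and starts a few bases apart share their sequence and are not independent. Counted by gene, 8 of the 10 genes had a CpG-rich start, and in 3 of them, H19, Meg3 and Mest, none was covered, beside 5.1% (654) of the 12831 genes with such a start. H19 and Meg3 count here through 1 start each just past the limit, with CpG ratios of 0.617 and 0.606, so that Mest alone had uncovered starts well above it and no covered one. At the gene start alone, 3 of the 10 were CpG-rich, Kcnq1ot1, Peg10 and Nnat, and all 3 were covered, beside 94.3% of CpG-rich gene starts. Of these, Kcnq1ot1 lay at the limit, with a CpG ratio of 0.6.

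**Figure D3:**
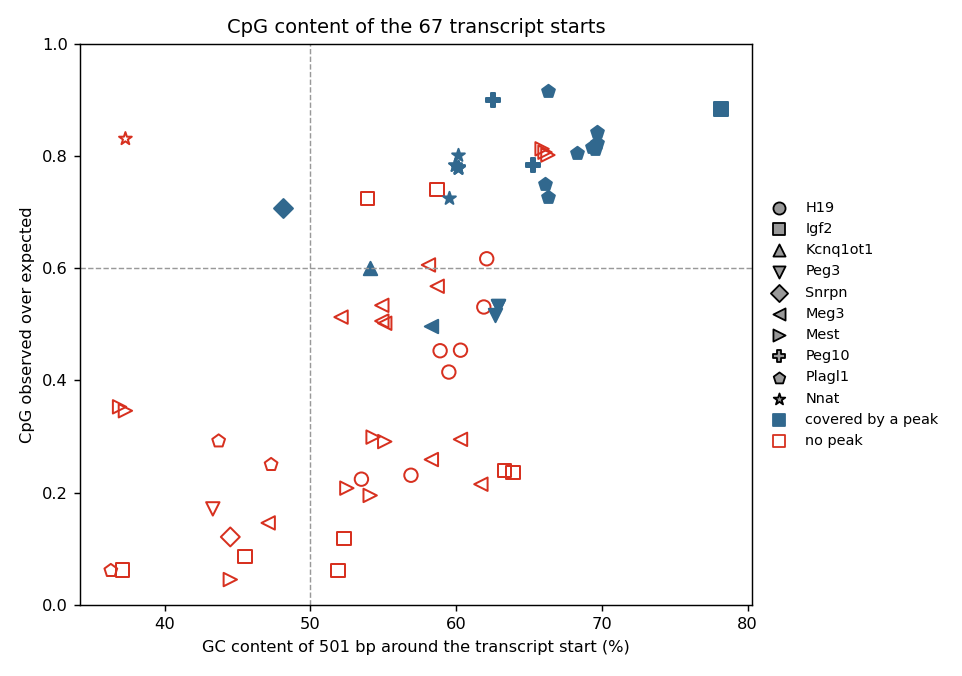
Observed over expected CpG ratio against GC content (%) in the 250 bp on either side of each of the 67 transcript starts, with a symbol for each gene, filled blue where a peak covered the start and open red where none did. Dashed lines mark the limits of 50% and 0.6 for a CpG-rich start. The 3 starts of Mest with a CpG ratio of 0.80 to 0.81 are open, among filled starts of Plagl1 and Peg10.

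For the letters bound by ZFP57, 16 of the 42 peaks (38.1%) held TGCCGC on either strand, beside 14.7% of all peaks and 51.2% of all gene start peaks. Among the 8 peaks over a transcript start of the 10 genes, 4 held it, those of Snrpn (10 matches), Plagl1 (6), Nnat (6) and Peg10 (1), a share of 50% that was close to that of all gene start peaks. Within 250 bp of the summit the share was lower, 25% beside 34.6%, whereas the density over whole peaks was higher, 2.71 matches per kb beside 0.786, with most matches in 3 of the peaks. CGNGGNGGC occurred in 4 of the 42 peaks (9.5%), beside 9.2% of all peaks. Among the 8 peaks over a transcript start, 2 held it (25%), beside 43.3% of all gene start peaks. There were 3 matches in the start peak of Igf2 and 1 in that of Snrpn. AAGATGGC occurred in 4 of the 42 peaks (9.5%), near the 7.9% of all peaks, and 2 of the 4 were the Peg3 intron peaks. These letters describe the sequence, and no binding was measured.

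Another 46 imprinted genes were looked up for comparison. A peak covered the gene start of 33 of them (71.7%, beside the 50.4% of all protein-coding and lincRNA genes) and a transcript start of 37 (80.4%, beside 56.5%), and all 46 had a peak within 20 kb, beside 90.1% of all protein-coding and lincRNA genes. Most of the 46 are protein-coding. Of all protein-coding genes, 59.2% had a peak over the gene start and 66.6% over a transcript start. Among the 46 gene starts, 22 were CpG-rich and 21 of these were covered, beside 94.3% of CpG-rich gene starts in general. The median fold enrichment of the start peaks of the 46 was 6.56, beside 4.55 for the 4 start peaks of the 10 genes and 8.53 for covered genes in general. The 5 highest belonged to Commd1 (15.1), Zim1 (15.0), Copg2 (13.8), Mcts2 (13.6) and Ube3a (12.5, with 93 fragments), of which Commd1 holds Zrsr1 in an intron and Copg2 lies next to Mest. Sgce and Usp29 share their start peak with Peg10 and Peg3, so these lists are not independent. No start peak was listed for 9 of the 46 at any transcript start, among them Rian and Mirg, the non-coding RNAs downstream of Meg3.

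The factors that keep imprints were also looked up. Of 10 such genes, all protein-coding, 7 had a peak over the gene start and 10 over a transcript start. The shares were 50.4% and 56.5% of all protein-coding and lincRNA genes, and 59.2% and 66.6% of all protein-coding genes. Among the 10 were Zfp57 (fold enrichment 10.4, 39 fragments), Trim28 (7.53, 69 fragments), Dnmt1, the maintenance DNA methyltransferase (8.93, 39 fragments), and Ctcf (8.08, 51 fragments). Of 16 germline genes known to be silenced by DNA methylation of a promoter, 14 had a peak over the gene start, with a median fold enrichment of 8.05 and a median of 22 fragments. Their starts are mostly CpG-rich (13 of 16), and 12 of these 13 were covered, close to the 94.3% of CpG-rich gene starts in general. Dazl, for example, which encodes an RNA-binding protein of germ cells, had a fold enrichment of 10.2 with 48 fragments. The 4 gene start peaks of the 10 imprinted genes had a lower median fold enrichment, 4.55, but a higher median fragment number, 29. Over any transcript start, the medians of the highest peaks were 4.39 and 20 fragments for the 8 imprinted genes and 8.07 and 23 fragments for the 15 germline genes.

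**Figure D4:**
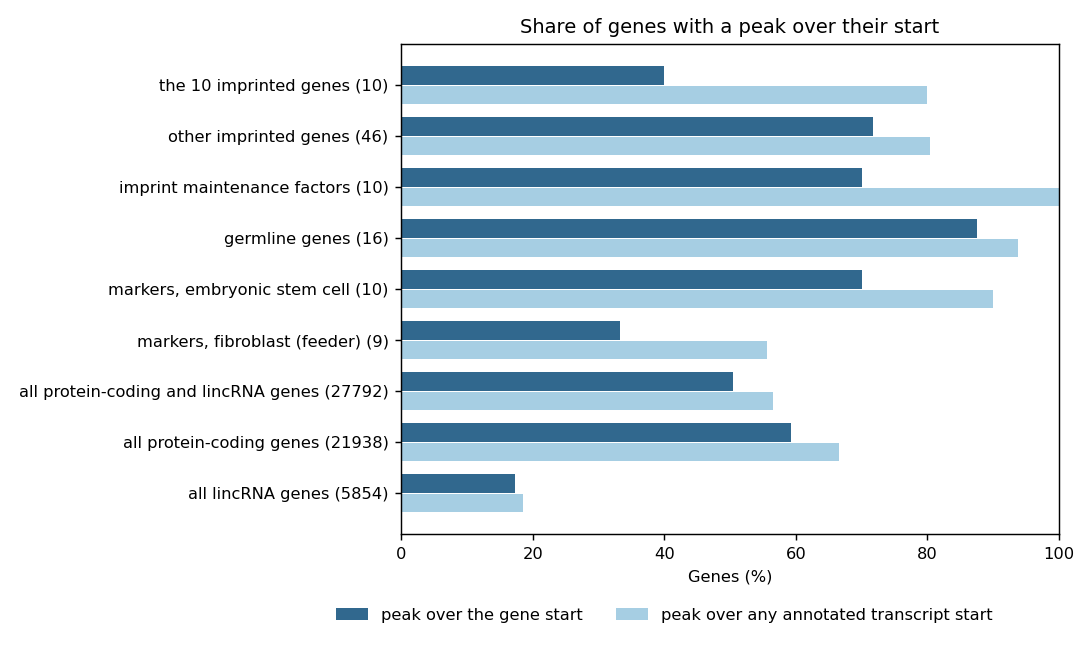
Share of genes (%) with a peak over the gene start (dark bars) or over any annotated transcript start (light bars), by list, with the number of genes in parentheses. For the 10 imprinted genes the bars reach 40% and 80%, and for all protein-coding and lincRNA genes 50.4% and 56.5%.

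The cell type named in the labels was compared with its markers. Of 10 genes of embryonic stem cells, all protein-coding, 7 had a peak over the gene start and 9 over a transcript start. The shares were 50.4% and 56.5% of all protein-coding and lincRNA genes, and 59.2% and 66.6% of all protein-coding genes. The stem cell genes with a peak include Zfp42 (fold enrichment 15.9, 151 fragments), Nanog (4.13, 40 fragments) and Pou5f1 (2.83, 17 fragments), while Sox2 had none. Of 9 fibroblast genes, which mark the feeder cells, 3 had a peak over the gene start (Twist2, Thy1 and Pdgfrb, with 11 to 12 fragments) and 5 over a transcript start (55.6%). This share was close to the 56.5% above and below the 66.6% of all protein-coding genes, the type of all 9. The strongest peaks over their transcript starts were at the collagen genes Col1a2 (fold enrichment 7.50, 23 fragments) and Col1a1 (6.42, 18 fragments). Col3a1, Prrx1, Postn and Dcn had none. Of the endoderm, neural and mesoderm genes, 2 of 4, 3 of 3 and 1 of 3 had a peak over the gene start, and 4 of 4, 3 of 3 and 2 of 3 over a transcript start. With a −log10 q of at least 10, 37.3% of all protein-coding and lincRNA genes had a peak over the gene start. Among the stem cell genes 5 of 10 had one, and among the neural genes 2 of 3. It was found at 0 of the fibroblast, endoderm and mesoderm genes. The lists differ in their gene starts. CpG-rich were 3 of 10 stem cell, 1 of 9 fibroblast, 1 of 4 endoderm, 3 of 3 neural and 1 of 3 mesoderm starts. Of all CpG-rich gene starts, 77.8% had a peak at this q. Whether the counts follow the type of start or the cells present was not tested. Over any transcript start at this q, the share of all genes was 41.7%. The counts there were 7 of 10 stem cell genes and 3 of 3 neural genes. For the fibroblast, endoderm and mesoderm genes they were 1 of 9, 2 of 4 and 0 of 3. Whether reads of feeder cells added to the peaks at the imprinted genes was not tested.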

How the data were processed

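ATAC-seq was measured in 2 clones of EHMT2-dTAG mESCs after 24 h of DMSO. The authors used BBMap for trimming and STAR 2.7.10 for alignment to mm10, removed duplicates with Picard 2.26.0 and discarded reads of ENCODE High Signal Regions, corrected fragment ends for the Tn5 offset and called peaks with MACS2 2.2.6 on both clones merged, at a q-value below 0.05. The deposited fold enrichment is a ratio over local background, computed by the authors with a pseudocount of 1. The deposited significance columns give −log10 of the p-value and of the q-value at each summit, and the deposited score, derived from the p-value, was not used further. Of 116782 peaks, 116777 lie on chromosomes 1 to 19, X and Y. Library totals were not analysed here.

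Fragments over each summit were worked back from these columns with the MACS2 formulas, and came out whole, within 0.05, for 116777 peaks. On 4943 simulated peaks, 100% were recovered. Gene and transcript starts came from GENCODE for mm10, in an earlier release than that of the study, and elements and sequences from RefSeq GRCm38.p6. Motifs were searched on both strands of whole peaks, and copies with BLAST 2.17.0. The 10 genes, the lists of other genes, the motifs and the windows were chosen with earlier results of these data known. The text names the 10 genes with their start peaks, highest peaks and control windows, and of the other imprinted genes those with the 5 highest start peaks or a start peak shared with the 10. Further genes of the lists were named after their values were seen. Alternatives were a −log10 q of at least 10, other starts, flanks of 10 and 50 kb, summit windows and a shorter motif. Python 3.11.15, pandas 2.3.3, NumPy 2.4.6, SciPy 1.17.1 and Matplotlib 3.10.9 were used.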

Additional observations from a re-analysis of the deposited data

How the results depend on the processing

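No paired analysis was possible because the clones were merged before peak calling, and for the same reason no replicate could be left out. Requiring a −log10 q of at least 10 reduced the genes with a peak over the gene start from 4 to 2 (Kcnq1ot1 and Peg10), and the peaks within 20 kb from 42 to 8. Counting any transcript start gave 8 genes, and 2 with both changes, a combination added after the data were seen. At the stricter q, 37.3% of all genes had a peak over the gene start and 41.7% over any start, so the count over any start turned from above to below the share of all genes. Flanks of 50 kb gave 78 peaks. The start peaks had a median fold enrichment of 4.55 and, among all peaks, a median percentile of 54.1 by fold enrichment but of 87.0 by fragments. TGCCGC occurred in 2 of the 4 gene start peaks, in 1 within 250 bp of the summit, and in 4 of the peaks over any transcript start, which was also added later. Without its first 2 letters, the CTCF motif had 7 matches in place of 3 in the H19 window, a number reached by 14.99% of like windows. The count of other imprinted genes with a start peak, 33, lay between 23 and 37 under its 4 alternatives, of which any transcript start with the stricter q (25) was added after the data were seen. The peak numbers with flanks of 10 kb (36) or summits inside the range (42) and the CTCF matches in the RefSeq control region (3), also added later, moved little. The lowest fragment number that gave a peak, 6, limits what could be seen at H19 and Mest.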
